A study of Mus musculus with 1528 samples.

Results

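The genes described here are 10 of the 55421 genes in the table of counts, chosen by name for their part in lipid uptake, storage and efflux: *Apoe*, *Pltp*, *Abca1*, *Abcg1*, *Nr1h3*, *Lpl*, *Cd36*, *Fabp4*, *Fabp5* and *Plin2*. Each symbol matched 1 Ensembl identifier, and all 10 passed the filter on low counts together with the other genes of the 17034 that were tested. The cells were wild-type bone marrow–derived macrophages (BMDMs) of 2 C57BL/6 mice (C57BL/6J in the study's methods), grown with M-CSF. All of them received IL4+IL13 at 10 ng/ml each for 24 h, which drives the state called M2 or alternative activation, and 1 of the 2 groups also received TNF at 10 ng/ml (IL4+IL13+TNF). Cells with TNF alone or with no cytokine were not analysed here, so every difference below is between IL4+IL13+TNF (written as with TNF) and IL4+IL13 (written as without TNF). Living cells were sorted singly into 4 plates for Smart-seq2, which reads whole transcripts without molecular identifiers. Plates 2 and 3 held mouse 1 and plates 4 and 5 held mouse 2. No plate held both mice, so mouse and plates cannot be told apart. A difference named by mouse below is one of mouse and plates together. Each treatment filled its own rows of a plate, so treatment and plate position cannot be told apart within a plate. The question was how each of these genes differed between the treatments, between the mice and from cell to cell.

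Macrophages take up lipid through scavenger receptors such as CD36 and through fatty acids that lipoprotein lipase (*Lpl*) frees from circulating particles. Inside the cell, the fatty acid binding proteins FABP4 and FABP5 carry fatty acids, and PLIN2 coats the droplets in which neutral lipid is stored. Surplus cholesterol leaves through the transporters ABCA1 and ABCG1 to acceptors such as apolipoprotein E, the phospholipid transfer protein PLTP moves lipid between particles, and the sterol-sensing receptor LXRα (*Nr1h3*) switches on several of these genes.

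After wells of poor quality were left out per plate, 1386 of 1524 wells stayed: 357 of mouse 1 and 333 of mouse 2 without TNF, and 347 and 349 with it. Kept cells held between 200235 and 6122892 fragments, with a median of 477871 without TNF and 464673 with it. The label BMDM was checked against macrophage markers: all 8 (*Adgre1*, *Csf1r*, *Cd68*, *Mertk*, *Fcgr1*, *Itgam*, *Lyz2* and *Cd14*) were detected, with a summed level of 15200 and 16700 CPM (counts scaled to library size) without TNF and 28500 and 27300 CPM with TNF, most of it *Lyz2*. The adipocyte markers summed to at most 5.50 CPM in any group, T cell, B cell, neutrophil, mast cell, stromal and erythroid markers to at most 5.79 CPM, and osteoclast markers to between 65.9 and 78.0 CPM. The dendritic cell markers moved with treatment, from 8.39 and 12.4 CPM to 31.2 and 209 CPM, and most of that sum was *Ccr7* (21.4 and 194.7 CPM with TNF), while *Xcr1* and *Clec9a* stayed under 1 CPM. Its part in the results below was not tested.

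Levels of different genes were compared per length, as normalised fragments per exon length and library size (FPKM). The length is that of all annotated exon bases of a gene, not of 1 transcript. For *Fabp4* it was 4489 bases in 1 block that spans the whole gene, and for *Fabp5* 3567 bases in 2 blocks. Where that length exceeds the transcript in the cells, FPKM is too low, so the order below depends on the annotation. Without TNF the order was *Plin2* (295 ± 88.6, SD, n = 2 mice), *Cd36* (203 ± 102.1), *Lpl* (185 ± 38.2), *Pltp* (161 ± 3.999), *Apoe* (129.5 ± 28.7), *Fabp5* (76.6 ± 7.91), *Abcg1* (54.4 ± 27.45), *Fabp4* (38.6 ± 9.69), *Abca1* (5.30 ± 3.01) and *Nr1h3* (5.04 ± 0.8065). The mice overlapped between neighbours from *Plin2* down to *Pltp*, from *Fabp5* down to *Fabp4*, and for *Abca1* and *Nr1h3*, so the ranges of those neighbours were not apart. Within each mouse *Plin2* was still above *Cd36* and *Abcg1* above *Fabp4*. *Apoe* lay below *Pltp* and above *Fabp5* in each mouse. With TNF the first 3 were *Lpl* (254 ± 124 FPKM), *Plin2* (247 ± 74.75) and *Cd36* (244 ± 115). *Apoe* then stood at 40.6 ± 3.22 FPKM, under *Fabp5* (97.7 ± 4.955) and *Pltp* (87.9 ± 1.66), and *Nr1h3* (13.6 ± 2.96) and *Abca1* (13.5 ± 5.38) stayed the lowest pair.

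With TNF, *Apoe* and *Pltp* were lower and *Nr1h3* and *Abca1* were higher in each mouse and on each of the 4 plates. *Cd36* and *Fabp5* were also higher and *Plin2* was lower on each of the 4 plates, by smaller amounts. The share of all genes that agree on the 4 plates was not taken. *Abcg1*, *Lpl*, *Cd36* and *Plin2* lay apart by mouse. Adding up the cells of each mouse under each treatment gave 4 sums of counts. In the fit with treatment as the only term (edgeR quasi-likelihood test, Benjamini-Hochberg adjusted p under 0.05), 0 of the 10 genes were called, beside 0.00587% of all 17034 genes tested. An unadjusted p under 0.05 in that test was held by 4 of the 10, beside 1380 of the 17034. With the mouse as a replicate block, which compares the treatments within each animal and leaves few degrees of freedom, 4 of the 10 were called, 2 higher and 2 lower, beside 3.82% of all genes (1.94% higher and 1.88% lower). DESeq2 with treatment only called 3 of the 10, without *Abca1*, beside 3.89% of its 15382 genes (1.98% higher and 1.9% lower). The blocked calls depended on single plates: 0 of the 10 were called without plate 2 (adjusted p of these 4 genes 0.0716 to 0.109) or without plate 4 (0.0562 to 0.0699), 4 without plate 3, and 3 without plate 5, where *Nr1h3* was lost (0.0926). Over all genes tested, the same fits called 4 of 17028 without plate 2 and 51 of 17028 without plate 4. They called 332 of 17016 without plate 3 and 230 of 17023 without plate 5.

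**Figure D1:**
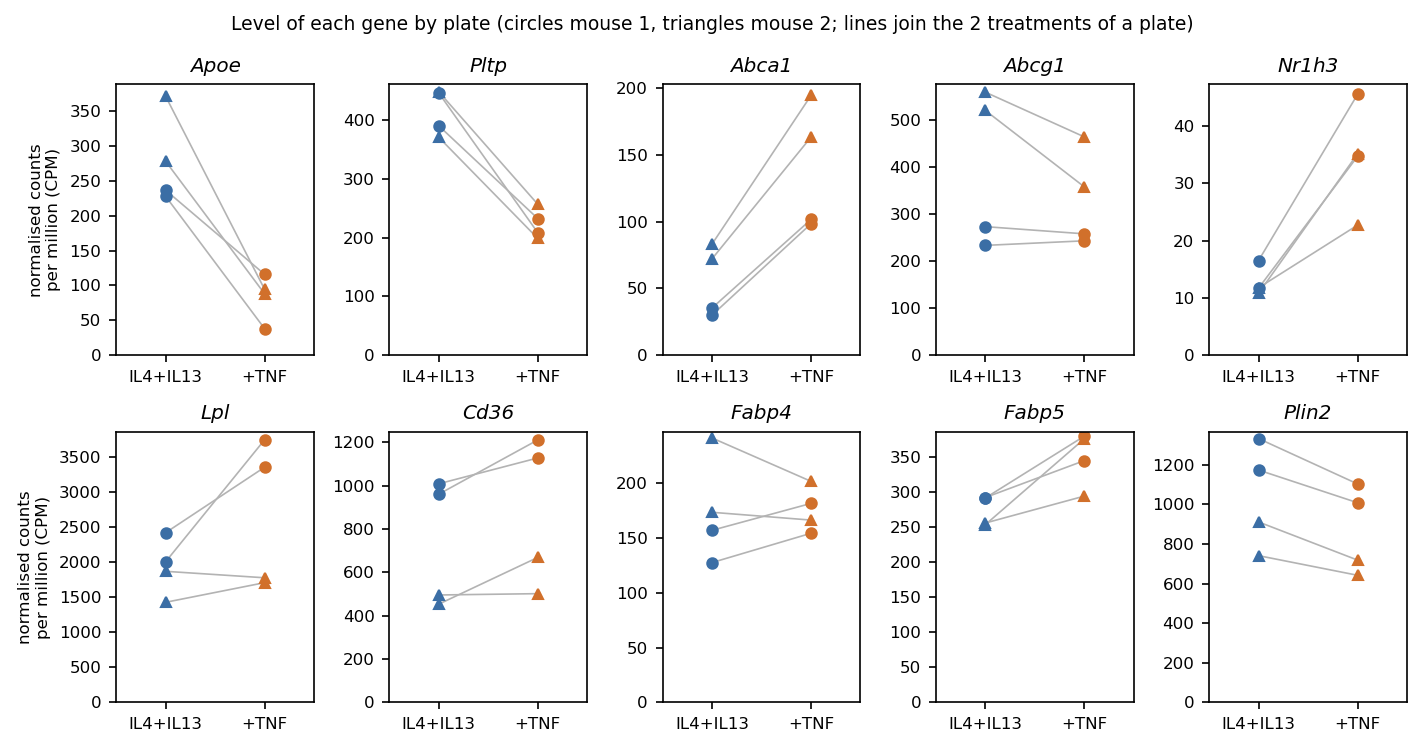
Normalised CPM of the 10 genes in the summed cells of each plate (vertical axis, starting at 0) without TNF (blue) and with TNF (orange), circles for mouse 1 and triangles for mouse 2, lines joining the treatments of 1 plate. *Apoe* and *Pltp* fall and *Abca1* and *Nr1h3* rise along all 4 lines. *Cd36* and *Fabp5* also rise and *Plin2* falls along all 4, by less, and *Abcg1*, *Cd36*, *Lpl* and *Plin2* separate by mouse.

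*Apoe* (ENSMUSG00000002985, chr7:19696109-19699188, minus strand, mm10) encodes the apolipoprotein that accepts cholesterol at the cell surface, and the study counts it among its M2 “signature” genes. Its level was 233 and 320 CPM without TNF in mouse 1 and in mouse 2 and 81.9 and 91.6 CPM with TNF. Both values with TNF lay under both without it. The log2 fold change was -1.67 (SE 0.22; adjusted p = 0.184 in edgeR) and, with the mouse as a block, -1.66 (SE 0.12; adjusted p = 0.00798). By plate, *Apoe* changed by -2.58, -1.03, -1.66 and -1.97 on the log2 scale on plates 2, 3, 4 and 5. The 2 plates of mouse 1 differed with TNF, at 38.2 CPM on plate 2 and 116 CPM on plate 3, and 1 cell of plate 3 at 9595 CPM held 45.2% of the *Apoe* CPM there. The mean over cells was 115.9 CPM on plate 3 with that cell and 63.9 CPM without it, beside 39.2 CPM on plate 2. Among the cells without TNF, 1 cell of plate 2 at 10180 CPM held 24.3% of the *Apoe* CPM there. The mean was 231.4 CPM with that cell and 176.1 CPM when it was left out. In every other set of 1 plate and treatment the highest cell held 9.20% to 12.3%. Without plate 2 the blocked log2 fold change was -1.42 (adjusted p = 0.109).

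*Pltp* (ENSMUSG00000017754, chr2:164839518-164857711, minus strand), the phospholipid transfer protein, was the steadiest of the changed genes. It stood at 419 and 404 CPM without TNF and at 222 and 228 CPM with TNF, so the mice differed little within a treatment and the treatments did not overlap. The log2 fold change was -0.87 (SE 0.15; adjusted p = 0.226) and kept that size in the blocked fit (SE 0.095; adjusted p = 0.0171). The plates gave between -1.10 and -0.75. The exons of *Pltp* share 495 of their 2562 bases with those of *Ctsa* on the other strand, and counting did not use the strand. *Ctsa* stood at 1012 and 800.5 CPM without TNF and 1188 and 987 CPM with TNF, a log2 fold change of 0.26 (adjusted p = 0.833).

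*Nr1h3* (ENSMUSG00000002108, chr2:91184061-91202834, minus strand) encodes the sterol receptor LXRα, and it moved the other way. It was low without TNF, at 14.1 and 11.2 CPM, and stood at 39.6 and 29.0 CPM with TNF. The groups did not overlap, and all 4 plates showed the rise, by 0.95 to 1.70 on the log2 scale. The log2 fold change was 1.44 (SE 0.27; adjusted p = 0.264) and 1.43 with the mouse as a block (SE 0.15; adjusted p = 0.0159). The exons of *Nr1h3* share 34 bases with *Gm13783*. *Nr1h2*, the related receptor LXRβ, had a log2 fold change of -0.02 (SE 0.20; adjusted p = 0.994).

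*Abca1* (ENSMUSG00000015243, chr4:53030787-53159895, minus strand), the transporter that loads cholesterol onto lipid-poor apolipoproteins, differed both by treatment and by mouse. Its level was 32.9 and 77.0 CPM without TNF and 100.5 and 179 CPM with TNF in mouse 1 and mouse 2. Mouse 2 was 2.34-fold higher than mouse 1 without TNF and 1.78-fold higher with it. The change with TNF was 3.06-fold in mouse 1 and 2.33-fold in mouse 2. Across the mice the log2 fold change was 1.35 (SE 0.50; adjusted p = 0.582), and with the mouse as a block it was 1.42 (SE 0.14; adjusted p = 0.0143). Without the block, the value was 2.09 when the IL4+IL13 sum of mouse 2 was left out and 0.86 when that of mouse 1 was. These fits set both mice with TNF beside only 1 mouse without it, so the difference between the mice enters the value. Within mouse 1 and mouse 2 the log2 change was 1.61 and 1.22.

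*Abcg1* (ENSMUSG00000024030, chr17:31057675-31117988, plus strand), the transporter that passes cholesterol to larger particles, did not share that pattern. It stood at 255 and 539 CPM without TNF and 252 and 411 CPM with TNF. Mouse 2 was above mouse 1 under each treatment, 2.11-fold and 1.63-fold, and the treatments overlapped. The log2 fold change was -0.26 (SE 0.43; adjusted p = 0.949), and with the mouse as a block -0.20 (SE 0.12; adjusted p = 0.413).

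**Figure D2:**
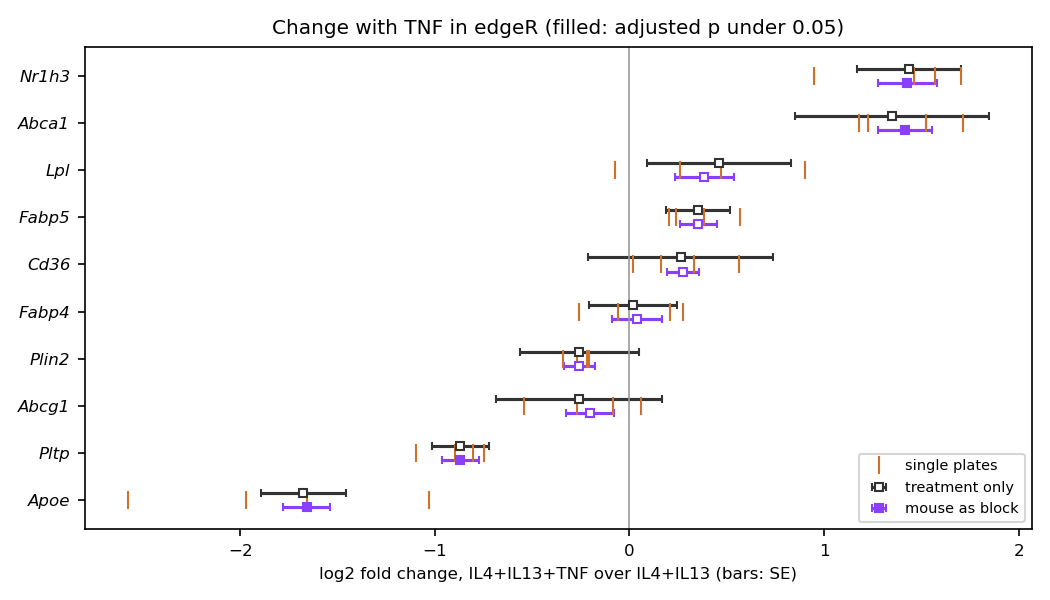
Log2 fold change of each gene with TNF (horizontal axis) in the edgeR fit with treatment only (black squares) and with the mouse as a block (purple squares), bars giving the SE, filled squares an adjusted p under 0.05, and orange ticks the 4 single plates. The 4 filled squares are *Apoe*, *Pltp*, *Abca1* and *Nr1h3* in the blocked fit, and the SE of *Abca1* shrinks from 0.50 to 0.14 with the block.

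The stretch before the start of the 4 changed genes is printed because these genes moved with treatment, in opposite directions. The RefSeq promoter table (GRCm38.p6, the same assembly as mm10) held 6 of the 10 genes, and *Abcg1*, *Lpl*, *Fabp4* and *Fabp5* had no entry. It gave 3 starts for *Apoe* and 2 for *Nr1h3*. The printed start is that nearest to the start of the gene's first-numbered GENCODE vM21 transcript. For *Nr1h3* the printed stretch lies inside the span of the gene. Each line gives the 250 bases upstream of a start, 5′ to 3′ on the gene's own strand, with a match to a searched motif in capitals.
Apoe (chr7:19699189-19699438, minus strand): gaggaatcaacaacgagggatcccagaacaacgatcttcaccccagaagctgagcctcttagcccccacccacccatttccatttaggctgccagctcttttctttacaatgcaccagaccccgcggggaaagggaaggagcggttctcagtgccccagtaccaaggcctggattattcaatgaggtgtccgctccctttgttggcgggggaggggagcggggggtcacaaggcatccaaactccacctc
Pltp (chr2:164857709-164857958, minus strand): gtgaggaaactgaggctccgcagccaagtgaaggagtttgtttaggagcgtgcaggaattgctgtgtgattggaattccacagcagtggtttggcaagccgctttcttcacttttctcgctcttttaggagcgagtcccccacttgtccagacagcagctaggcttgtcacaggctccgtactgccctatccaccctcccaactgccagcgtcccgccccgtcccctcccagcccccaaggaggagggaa
Nr1h3 (chr2:91195117-91195366, minus strand): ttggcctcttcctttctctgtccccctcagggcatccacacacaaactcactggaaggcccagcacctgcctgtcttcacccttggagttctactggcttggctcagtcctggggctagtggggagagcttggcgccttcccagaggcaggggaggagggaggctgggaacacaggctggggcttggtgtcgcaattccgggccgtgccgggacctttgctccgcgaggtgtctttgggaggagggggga
Abca1 (chr4:53159896-53160145, minus strand): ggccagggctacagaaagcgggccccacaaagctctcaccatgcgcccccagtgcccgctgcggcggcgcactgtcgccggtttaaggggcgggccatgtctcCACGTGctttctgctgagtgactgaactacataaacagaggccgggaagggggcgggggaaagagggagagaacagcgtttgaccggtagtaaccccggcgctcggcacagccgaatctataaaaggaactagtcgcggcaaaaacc
On both strands of 300 bases, from 250 before to 50 after the start, 7 motifs were searched: direct repeats of the nuclear receptor half-site with 1 base (DR1) or 4 bases (DR4) between them, the half-site AGGTCA, the STAT6 element, in which TTC and GAA stand 4 bases apart, the AP-1 element TGANTCA, the E-box CACGTG and the NF-kB consensus. *Apoe*, *Pltp* and *Nr1h3* held none of them, and *Abca1* held 1, the E-box that starts at position -147. No match says only that these exact letters are not in this window. Each half-site of a DR1 or DR4 had to read RGKTCA (R for A or G, K for G or T). Repeats with other letters in a half-site were not counted, so looser repeats may be present in the printed lines. Of all 32851 promoters of the table, 7.15% hold that E-box, 16.26% AGGTCA, 0.22% a DR1, 0.08% a DR4, 6.95% the STAT6 element, 7.81% the AP-1 element and 8.46% the NF-kB consensus. *Cd36* held AGGTCA and the STAT6 element, and *Plin2* held AGGTCA, the E-box and the NF-kB consensus. These matches describe letters in a window and no binding was measured.

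Uptake and storage came next. *Cd36* (ENSMUSG00000002944, chr5:17781690-17888801, minus strand), the scavenger receptor for oxidised lipoproteins and fatty acids, stood at 989 and 470 CPM without TNF and 1166 and 584 CPM with TNF. Mouse 1 was 2.10-fold and 2.00-fold above mouse 2, and the treatments overlapped. Within each mouse *Cd36* was higher with TNF, 1.18-fold and 1.24-fold, as it was on 4 of 4 plates. The log2 fold change with TNF was 0.26 (SE 0.48; adjusted p = 0.954), and 0.28 with the mouse as a block (SE 0.08; adjusted p = 0.143).

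*Plin2* (ENSMUSG00000028494, chr4:86648386-86670060, minus strand), the droplet coat protein, showed the same order of the mice, with 1257 and 817 CPM without TNF and 1053 and 682 CPM with TNF. It was lower with TNF on 4 of 4 plates, by -0.34 to -0.21 on the log2 scale. The log2 fold change was -0.26 (SE 0.31; adjusted p = 0.923) and with the mouse as a block -0.26 (SE 0.08; adjusted p = 0.148), so it passed neither test.

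*Lpl* (ENSMUSG00000015568, chr8:68880491-68907448, plus strand), the secreted lipase, stood at 2217 and 1652 CPM without TNF and 3581 and 1744 CPM with TNF. The change was larger in mouse 1 (1.615-fold) than in mouse 2 (1.06-fold), and 3 of 4 plates were higher with TNF. Without the TNF sum of mouse 1 the log2 fold change was -0.15. That fit sets only mouse 2 with TNF beside both mice without it, so the difference between the mice enters the value. The fitted value was 0.46 (SE 0.37; adjusted p = 0.865), and 0.39 with the mouse as a block (SE 0.15; adjusted p = 0.228).

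*Fabp4* (ENSMUSG00000062515, chr3:10204088-10208576, minus strand) and *Fabp5* (ENSMUSG00000027533, chr3:10012548-10016607, plus strand) encode intracellular carriers of fatty acids and lie 187480 bases apart. *Fabp4* stood at 142 and 204 CPM without TNF and 166.5 and 184 CPM with TNF, a log2 fold change of 0.02 (SE 0.23; adjusted p = 0.995). *Fabp5* stood at 293 and 253 CPM without TNF and 361 and 336 CPM with TNF. These groups did not overlap and 4 of 4 plates were higher with TNF, but the log2 fold change of 0.35 (SE 0.16; adjusted p = 0.681) did not pass the test, nor did the blocked one (adjusted p = 0.118).

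The count of *Fabp5* is uncertain because copies of it share its sequence. The 5 genes most like it across cells were annotated processed pseudogenes. Only genes near the top of that order were looked at, so the table may hold further copies. Of the 25-base words in *Gm6166*, 73.8% also occur in *Fabp5* transcripts of GENCODE vM21, and of those in *Gm14328* 48.4%. *Gm6166* alone held 197, 172, 240.1 and 233 CPM in the 4 sums (mouse 1 and 2 without TNF, then with TNF). The row of *Fabp5* held between 51.3% and 52.3% of the sum of its own row and these 5. That sum was higher with TNF by 0.30 and 0.43 on the log2 scale in mouse 1 and mouse 2, beside 0.30 and 0.41 for *Fabp5* itself. *Fabp4* and *Fabp5* transcripts share 0 words of 25 bases, and so do *Fabp4* and the 5 pseudogenes.

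Over the 4 sums, the treatments did not overlap for 5 of the 10 genes (*Apoe*, *Pltp*, *Abca1*, *Nr1h3* and *Fabp5*), beside 36.4% of all genes tested. The mice did not overlap for the other 5, beside 50.4% of all genes tested. *Abcg1* and *Fabp4* were higher in mouse 2, and *Lpl*, *Cd36* and *Plin2* in mouse 1. The mice were not a treatment, each is 1 animal on its own plates, and no test of their difference was made.

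Each cell was then thinned to 339000 fragments, so that shares of cells with at least 1 fragment could be compared at equal depth. This left 1250 cells, and 136 shallower kept cells were set aside. *Lpl* and *Plin2* were found in 100% of these cells in all 4 groups. *Abcg1* and *Pltp* were found in at least 97.1% and *Cd36* in at least 92.2% of the cells of each group. The cell-to-cell differences of these 5 genes are therefore differences of level.

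*Abca1* and *Nr1h3* were found in more cells with TNF. *Abca1* was found in 44.6% (95% exact interval 39.1 to 50.1, of 332 cells) and 67.3% (61.8 to 72.5, of 309) without TNF, and in 77.6% (72.4 to 82.1, of 303) and 87.3% (83.0 to 90.8, of 306) with TNF, in mouse 1 and mouse 2. The difference was 26.5 percentage points (SD 9.22 between the mice). *Nr1h3* was found in 28.9% (24.1 to 34.1) and 22.01% (17.5 to 27.0) without TNF, and in 59.1% (53.3 to 64.7) and 37.9% (32.45 to 43.6) with TNF, a difference of 23.03 percentage points (SD 10.1). For each of these genes both mice with TNF lay above both without it (exact two-sided permutation p = 0.333, the smallest that 2 mice against 2 can give). *Pltp* also did not overlap, with 100% and 99.7% of the cells without TNF and 98.7% and 97.1% with it, but it did overlap without thinning. These 3 of the 10 genes stand beside 31.7% of all genes tested whose shares did not overlap. The intervals cover counting error only.

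**Figure D3:**
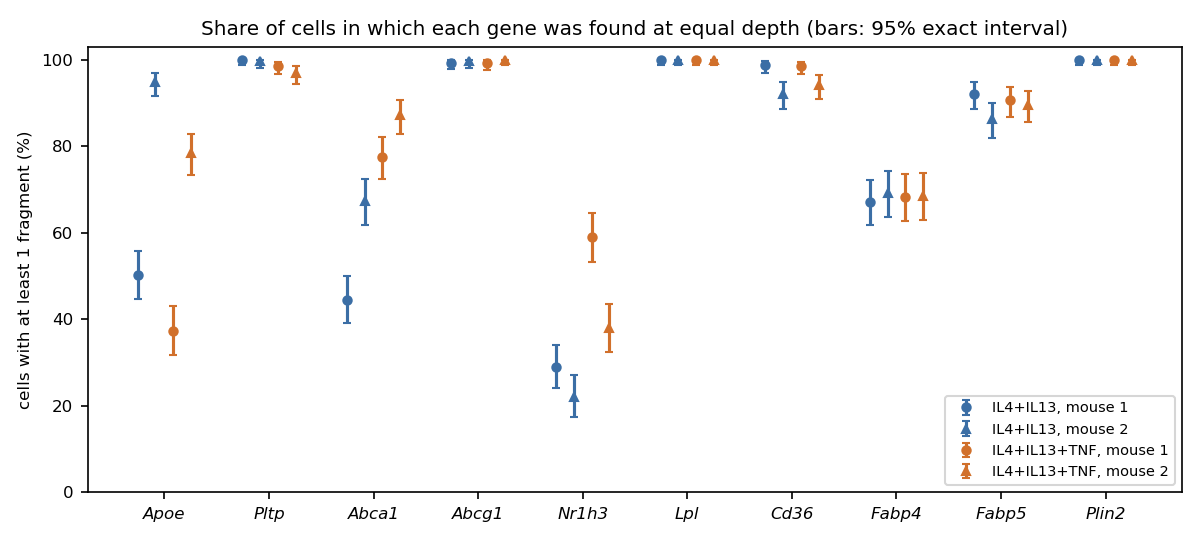
Percent of cells with at least 1 fragment of each gene after thinning to equal depth (vertical axis), without TNF (blue) and with TNF (orange), circles for mouse 1, triangles for mouse 2, bars the 95% exact interval. *Abca1* and *Nr1h3* are found more often with TNF in each mouse, and *Apoe* is set apart by mouse, with 50.3% and 94.8% of the cells without TNF.

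In the share of cells, the mice lay further apart for *Apoe* than for the other 9 genes. It was found in 50.3% (44.8 to 55.8) and 94.8% (91.7 to 97.0) of the cells without TNF and in 37.3% (31.8 to 43.0) and 78.4% (73.4 to 82.9) with TNF. The share with TNF minus that without was -13.01 and -16.39 percentage points in mouse 1 and mouse 2, but the mice lay further apart than the treatments (exact permutation p = 0.667). At a threshold of 100 CPM the mice lay close together, and less so at 1000 CPM. More than 100 CPM of *Apoe* was carried by 20.7% and 23.7% of the kept cells without TNF and by 11.2% and 12.3% with TNF. More than 1000 CPM was carried by 6.16% and 9.91% without TNF and by 1.44% and 3.15% with TNF. On plate 2, 0 of 164 kept cells with TNF passed 1000 CPM.

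Most of the *Apoe* signal came from few cells. The 5% of cells with the highest level held 65.7% and 56.0% of all *Apoe* CPM without TNF and 75.9% and 61.7% with TNF, while the median cell held 2.06 and 35.9 CPM and 0 and 22.2 CPM. The low level in mouse 2 was present in most cells, with 59.5% above 30 CPM without TNF against 24.65% in mouse 1. The *Apoe* level of each kept cell was also set beside the *Apoe* fragments of the other wells in its row and column. This measure was chosen after seeing the data. The rank correlation of *Apoe* ran from -0.166 to 0.524 in the 8 sets of 1 plate and treatment (median 0.138) and was highest in the TNF-treated cells of plate 5. For the other 9 genes the medians lay between -0.055 and 0.056. Its part in the shares of *Apoe* was not tested.

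**Figure D4:**
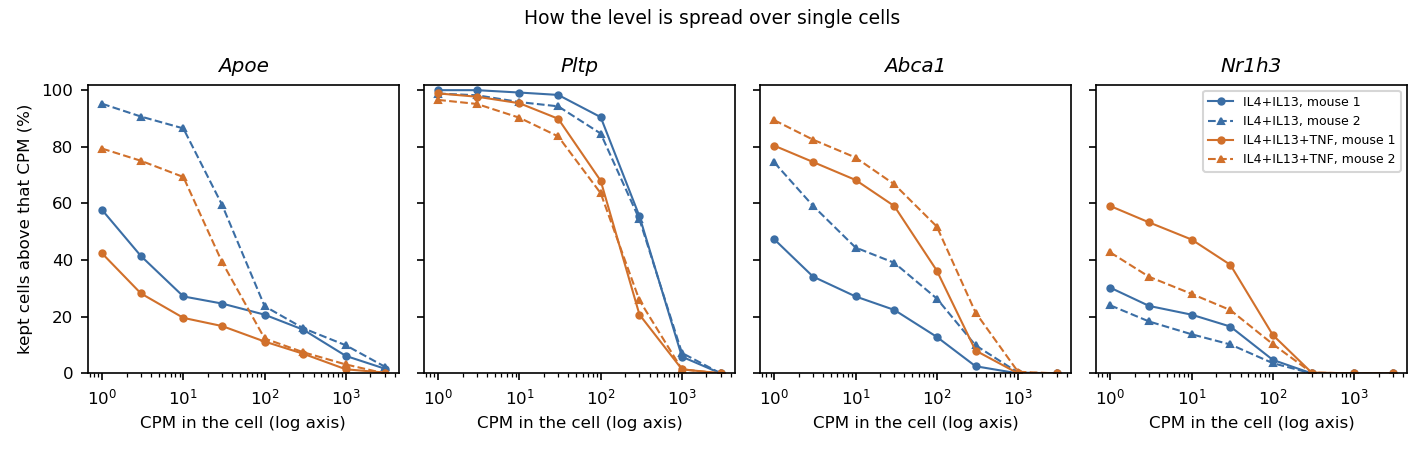
Percent of kept cells (vertical axis) above a given CPM (horizontal axis, log scale) for *Apoe*, *Pltp*, *Abca1* and *Nr1h3*, without TNF in blue and with TNF in orange, solid lines with circles for mouse 1 and dashed lines with triangles for mouse 2. For *Apoe* the mice separate below 100 CPM and the treatments separate above it, and for *Pltp* the treatments are furthest apart at 300 CPM.

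The lower level of *Pltp* was seen in the median cell. That cell held 338 and 323 CPM without TNF and 148.5 and 169 CPM with TNF, and the share of cells above 100 CPM was 90.5% and 84.7% against 68.0% and 63.6%. The highest 5% of cells held only 15.8% to 23.1% of all *Pltp* CPM. The median cell of *Abca1* went from 0 and 4.47 CPM to 56.0 and 108 CPM. For *Nr1h3* the median was 0 CPM in 3 of the 4 groups and 5.87 CPM with TNF in mouse 1. *Fabp4* was found in 67.2% to 69.3% of the cells of each group. At 5 or more fragments it was found in 43.6% without TNF and 49.1% with TNF (differences of 5.71 and 5.31 percentage points in mouse 1 and mouse 2, exact permutation p = 0.333). Its highest 5% of cells held between 39.0% and 53.7% of its CPM. *Fabp5* was found in 86.4% to 92.2%.

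Of the spread of log2(CPM + 1) among kept cells, treatment accounted for 13.5% for *Abca1*, 10.6% for *Pltp*, 6.25% for *Nr1h3*, 3.87% for *Plin2* and 3.36% for *Apoe*, and for under 0.5% for the other 5 genes. The mouse, which here includes its plates, accounted for 13.6% for *Apoe*, 11.5% for *Abcg1*, 10.8% for *Plin2*, 10.7% for *Lpl* and 9.51% for *Cd36*. For *Fabp4* it was 0.0204%. Mouse, treatment and plate together accounted for at most 19.1% for any of the 10 genes, so most of the spread lay among cells of 1 plate and treatment.

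The 45 pairs among the 10 genes were compared by rank over the cells of 1 mouse and treatment, as a description, since these cells share library preparation and plates. The mean Spearman rho over the 4 groups of mouse and treatment ran from -0.21 to 0.574 with a median of 0.042, and 18 pairs were above 0 and 4 below 0 in all 4 groups. *Fabp4* and *Fabp5* stood out with 0.574, 0.548, 0.666 and 0.51 in the groups in order (n = 357, 333, 347 and 349 cells), and 0.465 to 0.692 over single plates and treatments. *Cd36* came next, with *Plin2* (mean 0.244), *Lpl* (0.24) and *Fabp4* (0.222), each above 0.1 in all 4 groups. *Pltp* ran against *Fabp5* (mean -0.21, -0.235 to -0.183) and against *Apoe* (mean -0.124, -0.14 to -0.103). *Apoe* and *Pltp* were both lower with TNF, and their rho was weak and below 0 in each group.

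The efflux genes hardly followed each other. *Abca1* and *Abcg1* had a mean rho of 0.128 (0.064 to 0.195), *Apoe* and *Abca1* 0.11, *Apoe* and *Abcg1* 0.027, and *Abca1* and *Nr1h3* -0.022 (-0.116 to 0.03). *Nr1h3* and *Abca1* both rose with TNF, and in the thinned cells they were found together in 46.5% and 35.0% of the cells with TNF in mouse 1 and mouse 2, beside 45.8% and 33.1% for the product of their shares. In sparse counts weak correlations of this size are no finding.

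**Figure D5:**
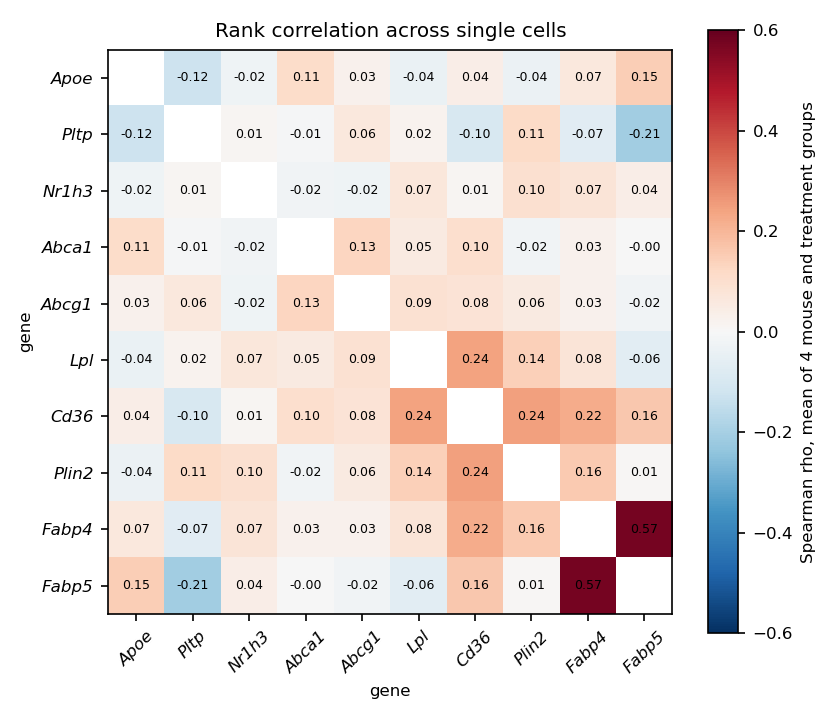
Spearman rho between the levels of each pair of genes across kept cells, as the mean over the 4 groups of mouse and treatment, blue below 0 and red above 0. *Fabp4* with *Fabp5* is the darkest square at 0.57, *Cd36* is red with *Lpl*, *Plin2* and *Fabp4*, and *Pltp* is blue with *Fabp5*.

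Out of 9564 genes that at least 25% of cells held in every group, the 3 most like each member by mean rho were as follows. For *Lpl* they were *Anxa1* (0.46), *Lipa* (0.376), the lysosomal acid lipase, and *Itgb2* (0.374). For *Plin2* they were the pseudogene *Gm12551* (0.566), *Anxa1* (0.397) and *Capg* (0.388), and 27.5% of the 25-base words of *Gm12551* occur in *Plin2* transcripts. For *Cd36* they were *Ctsl* (0.357), *Atp6v0d2* (0.309), a subunit of the vacuolar proton pump, and *Rnf128* (0.277). For *Pltp* they were *Cd74* (0.325), *Pld4* (0.31) and *H2-DMa* (0.308), of which *Cd74* and *H2-DMa* belong to antigen presentation. For *Abcg1* they were *Tpt1-ps3* (0.296), *Ahnak* (0.276) and *Jund* (0.273). *Fabp4* was closest to *Fabp5* and to its copies *Gm6166* (0.565) and *Gm14328* (0.556), and *Fabp5* to *Gm6166* (0.98), *Gm14328* (0.964) and *Gm13998* (0.844). The likeness was weak for the rest: *C1qc* (0.176), *Ogt* (0.166) and *Malat1* (0.163) for *Abca1*, *Gm13998* (0.159), *Ccl8* (0.148) and *Mgst1* (0.148) for *Apoe*, and *Slamf8* (0.144), *Anxa1* (0.129) and *Ctsd* (0.128) for *Nr1h3*.

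The wider pathway was read from lists of genes. The edgeR fit with treatment only called none of the list genes. Counts are given from the fit with the mouse as a block (1.94% of all genes higher and 1.88% lower) and from DESeq2 with treatment only (1.98% higher and 1.9% lower) where it differed, and medians of the log2 fold change from the edgeR fit with treatment only stand beside 0.00 for all genes. Of the 12 textbook targets of LXR, 12 were tested, 1 rose (*Abca1*) and 2 fell (*Apoe* and *Pltp*) with the block, with a median of -0.09. In DESeq2, 0 rose and 3 fell, since *Abca1* did not pass (adjusted p = 0.0892) and *Cd5l* did. *Cd5l*, a secreted protein that LXR induces, had the lowest log2 fold change of any list gene at -3.44 (SE 1.14; adjusted p = 0.0933 with the block and 0.00137 in DESeq2), from 21.3 and 25.3 CPM to 3.97 and 0.319 CPM. Of the targets called in neither fit, *Srebf1*, *Scd1* and *Smpdl3a* lay between -0.09 and 0.00. The others were *Mylip* (-0.53), *Abcg1* (-0.26), *Scd2* (0.16), *Lpcat3* (0.395) and *Lpl* (0.46).

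Of the 14 nuclear receptors and regulators, 12 were tested and 1 rose (*Nr1h3*) in either fit, with a median of -0.25. *Pparg* had a log2 fold change of -0.70 (SE 0.22; adjusted p = 0.506, and 0.0778 with the block). Of the 7 textbook PPAR targets, 6 were tested and 0 were called, with a median of -0.12. Of the 11 genes of efflux and sterol movement, 10 were tested and 1 rose (*Abca1*) with the block and 0 in DESeq2, with a median of -0.16. Of the 10 lipoprotein genes only *Apoe* and *Pltp* were tested, and both fell in either fit.

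Of the 14 uptake receptors, 12 were tested and 2 rose in either fit, with a median of -0.03, and DESeq2 also called *Colec12* lower (-1.06 in edgeR; adjusted p = 0.026 in DESeq2). *Msr1*, scavenger receptor A, went from 120.9 and 73.9 CPM to 296 and 199.7 CPM (log2 fold change 1.35, SE 0.33; adjusted p = 0.368, and 0.00865 with the block). *Cxcl16*, a chemokine that also binds oxidised lipoprotein, went from 69.4 and 138 CPM to 263 and 358 CPM (1.58, SE 0.38; adjusted p = 0.362, and 0.0135 with the block). Of the 24 genes of droplets and lipid hydrolysis, 17 were tested and 1 rose with the block, with a median of 0.15, and 2 in DESeq2. With the block it was *Acsl1*, which activates long-chain fatty acids, from 24.8 and 30.6 CPM to 80.7 and 92.6 CPM (1.65, SE 0.21; adjusted p = 0.179, and 0.00798 with the block). *Soat2*, which esterifies cholesterol, had the highest value among the tested list genes at 1.84 (SE 0.41; adjusted p = 0.0606 with the block and 0.00235 in DESeq2) from 1.11 and 1.25 CPM to 5.13 and 3.27 CPM. None of the tested genes of surface lipolysis (4 of 8), fatty acid binding (4 of 8) and fatty acid oxidation (16 of 17) was called in either fit, with medians of -0.10, -0.14 and 0.08.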

How the data were processed

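The authors sorted single BMDMs into plates, prepared Smart-seq2 libraries, used gsnap for alignment to mm10, and deposited raw counts of uniquely mapped fragments per Ensembl 98 gene from featureCounts 1.6.3, without normalization and without use of the strand. PCR copies are counted, since no molecular identifiers exist. Of the samples, 4 whose labels give no mouse went into no group, and 8 columns that match no label were not used. Spike-in rows (92) were left out of totals. Within each plate, wells with a low total, few genes, or a high mitochondrial or spike-in share (beyond 3 median absolute deviations) were dropped. No doublet caller was run on the singly sorted cells.

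The 4 sums of counts were tested over the whole table with edgeR 4.0.16 (TMM, glmQLFTest, Benjamini-Hochberg) in R 4.3.3, with treatment only, on genes found in at least 5% of cells. Alternatives were a replicate block for the mouse, DESeq2 1.42.0, limma 3.58.1 on log2(CPM + 1) of the mean CPM per cell, other scalings, thinning, filters, and fits without a sum or a plate. Both treatments came from each labelled mouse, and deviations from the treatment means correlated within a mouse (r = 0.562 over 17034 genes), so the mouse pairs the samples. The test was tested on simulated data first. Those counts held no difference between mice or plates, so they do not show how the test behaves where the mice differ. CPM in single cells uses the cell's own total. Shares use exact Clopper-Pearson intervals and an exact permutation test. Sequences are from RefSeq (GRCm38.p6), gene types and transcripts from GENCODE vM21. The members and gene lists were chosen with earlier results of these data known. Named genes are the 10 members, list genes past the threshold or at the ends of the lists, and the 3 genes most like each member, beside a few receptors and targets of those lists named after their values were seen.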

Additional observations from a re-analysis of the deposited data

Results flagged for a closer look

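*Fabp4* moved in opposite directions in the mice: its log2 change with TNF was 0.225 in mouse 1, where both plates were higher, and -0.147 in mouse 2, where both were lower. The difference between the mice was not tested. With IL4+IL13, the level of *Nr1h3* on plate 2 (16.5 CPM) stood apart from that on the other 3 plates (10.8 to 11.8 CPM), with a gap of 0.8304 of the whole range, and chance alone gives such a gap in about 1 in 20 sets of plates. This was the largest gap of 20 such sets (10 genes under each treatment). The plates of a treatment come from 2 mice and are not independent samples. In a well of plate 5 whose label names IL4+IL13 but no mouse, *Nr1h3* stood at 275.2 CPM (24 of 87198 fragments), and the highest kept IL4+IL13 cell at 253.5 CPM. The well held fewer fragments than any kept IL4+IL13 cell (at least 216624) and lay outside the rows that hold the other IL4+IL13 wells.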

How the results depend on the processing

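Treatment alone called 1 gene of the whole table. The count was 651 with the mouse as a replicate block, 598 with DESeq2, 2 with thinned cells and 4 to 30 with each of the 4 sums left out, and 332, 230, 51 and 4 with the block and without plate 3, 5, 4 and 2, alternatives chosen after seeing the data. Of the 10 members, 4 were called with the block, 3 with DESeq2, 4 and 3 with the block and without plate 3 and 5, and 0 in every fit that left out a sum. Such fits take the spread of the remaining pair for the lone sum. Over those fits the log2 fold change ran from -1.89 to -1.43 for *Apoe*, -0.89 to -0.85 for *Pltp*, 1.20 to 1.64 for *Nr1h3* and 0.86 to 2.09 for *Abca1*, and it changed sign for *Abcg1* (-0.71 to 0.38), *Lpl* (-0.15 to 0.89), *Cd36* (-0.32 to 0.89), *Fabp4* (-0.22 to 0.30) and *Plin2* (-0.60 to 0.082). *Fabp4* also changed sign with thinned cells (-0.069), library size (-0.076), mean CPM per cell (-0.19) and the block without plate 4 (-0.018). A fit that leaves out a sum has no block and sets both mice beside only 1, so the difference between the mice enters its value. Within mouse 1 and mouse 2 the log2 change was 0.238 and 0.313 for *Cd36* and -0.255 and -0.261 for *Plin2*. It was -0.016 and -0.389 for *Abcg1*, 0.691 and 0.078 for *Lpl*, and 0.225 and -0.147 for *Fabp4*. The cause of the sign changes was not tested. Among the 10 members the block changed the call of *Apoe*, *Pltp*, *Abca1* and *Nr1h3*. The shares of cells did not overlap for 3 members, beside 31.7% of all genes tested. At 5 or more fragments this held for 4 members (with *Fabp4*), and without thinning for 3, where *Abcg1* stood in place of *Pltp*. The share over all genes was not taken for these other settings, so their counts cannot be set beside it. With 2 mice, no exact test of a share can pass 0.05, and the block leaves 1 residual degree of freedom before moderation.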

Other observations

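The labels of 3 wells, among them the well of plate 5 described above, give the treatment as IL4+IL13 and leave out the mouse. There, *Lpl* stood at 4509, 1741 and 1365 CPM on plates 3, 4 and 5, *Abcg1* at 587, 778 and 126 CPM, *Abca1* at 71.6, 411 and 22.9 CPM, *Apoe* at 28.6, 56.4 and 11.5 CPM and *Pltp* at 25.05, 8.45 and 183.5 CPM. These wells held 279461, 354874 and 87198 fragments.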
